A study of Arabidopsis thaliana with 21 samples.

Results

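The 7 genes described here decide which epidermal cells of *Arabidopsis thaliana* form trichomes or root hairs. They are GL1 (AT3G27920), WER (AT5G14750), GL3 (AT5G41315), TTG1 (AT5G24520), GL2 (AT1G79840), CPC (AT2G46410) and TRY (AT5G53200), 7 of 33056 nuclear genes of the reference annotation. They were chosen by name and function. Their peaks were all regions that overlapped the gene body or the 2 kb upstream of its start, which gave between 7 and 18 regions per table. The whole tables held between 11487 and 27688 regions.

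The data were ChIP-seq of the histone marks H2AK121ub, monoubiquitinated histone H2A, and H3K27me3, trimethylated lysine 27 of histone H3. Chromatin came from pooled whole seedlings of the Col-0 ecotype, 7 days after germination (7DAG), grown in long days on sucrose-containing MS agar. H2AK121ub was profiled in the atbmi1a/b/c triple mutant (atbmi1abc), the clf28/swn7 double mutant (clfswn) and the lhp1 mutant, and H3K27me3 in atbmi1abc and clfswn, each in 2 replicates with wild-type (WT) Col-0 controls. AtBMI1 proteins are subunits of the H2A ubiquitin ligase module of Polycomb repressive complex 1 (PRC1), CLF and SWN are the H3K27 methyltransferases of complex 2 (PRC2), and LHP1 binds H3K27me3. The study names the lhp1 allele tfl2-2. Because seedlings were used whole, each value is an average over leaf and root epidermis and all other cells, so a mark lost from a few cells cannot be told apart from a weaker mark in many.

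In the epidermis, an R2R3 MYB protein (GL1 in the shoot, WER in the root), a bHLH protein such as GL3 and the WD40 protein TTG1 form a transcription complex. The complex turns on GL2, a homeodomain protein that promotes trichome fate in the shoot and the hairless fate in the root. It also turns on the small R3 MYB proteins CPC and TRY, which move to neighbouring cells, compete for the bHLH protein and so restrain the complex. Polycomb marks are known to lie over many such developmental regulators where they are silent.

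Each table set 1 mutant library beside 1 WT library and gave unscaled read counts per region. Reads over all regions of a table came to between 2796942 and 9405576 for H2AK121ub and between 1428193 and 9602490 for H3K27me3. The 6 WT H2AK121ub labels held 2 libraries, used for all 3 mutants, so these comparisons share their controls. Which column was mutant followed from the order in the table names. For H2AK121ub the shared WT column bore this out, while for H3K27me3 no such check existed and every direction rests on that order. Levels were first taken with the authors' rescaling, a line fitted over peaks they took as unchanged, which moved the log2 ratio of the median region by between -0.14 and 0.14, so these levels are close to ratios of unscaled reads. Scaling by total reads over all regions of a table shifts the log2 ratio of H2AK121ub instead, by 1.38 and 0.87 in the 2 replicates of atbmi1abc, by 0.20 and 0.19 for clfswn, and by -0.35 and -0.09 for lhp1. The shift of H3K27me3 was 0.38 and 0.19 for atbmi1abc but 2.75 and 1.49 for clfswn. Total reads remove any change shared by most peaks, and the rescaling keeps a difference in depth or precipitation, so both are given for each result. A peak was called lower or higher at an adjusted p under 0.05 in edgeR's quasi-likelihood test.

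Sequences of 3 places on which the results turned are shown from the RefSeq TAIR10.1 genome, each on its gene's own strand, 5′ to 3′. The CPC and GL2 peak centres held the largest H2AK121ub difference of these genes in atbmi1abc and in clfswn, and the GL2 upstream stretch lies inside a WT H3K27me3 peak. Capitals mark matches on either strand to the E-box CANNTG, to which bHLH proteins bind, or to the GA repeat GAGAGA. The telobox AAACCCTA was also searched and was not in these letters. The stretches are chr2:19051221-19051520 (minus strand, between genes), chr1:30037663-30037962 (plus strand, over coding exon and intron of GL2) and chr1:30036706-30036955 (plus strand, the 250 bases before the start of GL2).
CPC upstream peak centre: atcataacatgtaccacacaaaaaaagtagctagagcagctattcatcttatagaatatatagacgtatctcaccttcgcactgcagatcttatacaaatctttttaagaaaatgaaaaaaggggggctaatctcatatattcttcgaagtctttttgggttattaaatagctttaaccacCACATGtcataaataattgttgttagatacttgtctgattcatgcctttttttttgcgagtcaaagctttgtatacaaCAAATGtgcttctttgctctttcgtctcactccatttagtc
GL2 gene-body peak centre: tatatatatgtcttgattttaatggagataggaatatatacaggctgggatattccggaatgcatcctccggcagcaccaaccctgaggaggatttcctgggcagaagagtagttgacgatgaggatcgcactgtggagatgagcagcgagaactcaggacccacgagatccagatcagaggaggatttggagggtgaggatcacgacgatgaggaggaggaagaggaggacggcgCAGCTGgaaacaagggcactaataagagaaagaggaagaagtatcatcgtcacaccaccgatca
GL2 upstream stretch: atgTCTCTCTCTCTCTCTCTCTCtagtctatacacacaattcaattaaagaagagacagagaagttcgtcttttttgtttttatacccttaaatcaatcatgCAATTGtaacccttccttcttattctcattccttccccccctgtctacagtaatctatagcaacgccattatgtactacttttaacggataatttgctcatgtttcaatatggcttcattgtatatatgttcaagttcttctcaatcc

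The GL2 upstream stretch opened with a run in which 8 overlapping matches to the GA repeat began at every other base from base 4 to base 18. In windows from 250 bases before to 50 after the start, a GA repeat was found in 3 of the 7 genes (GL1, GL2 and CPC) and in 29.2% of 27443 protein-coding genes. An E-box was found in 6 of the 7 (all but CPC) and in 61.7% of all, and a telobox in 0 of the 7 and in 6.22% of all. In the 300 bases at the centre of WT H2AK121ub peaks, an E-box was found in 64.1% of 21987 peaks. These are matches of letters only.

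The first question was which of the 7 genes carry the marks in WT. H2AK121ub peaks were found in both replicates at 6 of the 7, all but WER, against 67.0% of 27444 protein-coding genes with the same window. H3K27me3 peaks were found in both replicates at GL1, GL3 and GL2 in the controls of atbmi1abc, against 34.4% of all, and at these genes and WER in the controls of clfswn, against 38.4%. The genes thus fell into 3 patterns in WT: GL1, GL3 and GL2 with both marks, CPC, TRY and TTG1 with H2AK121ub in both replicates and H3K27me3 in at most 1 library of a pair, and WER with H3K27me3 and no H2AK121ub region in any of the tables.

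**Figure D1:**
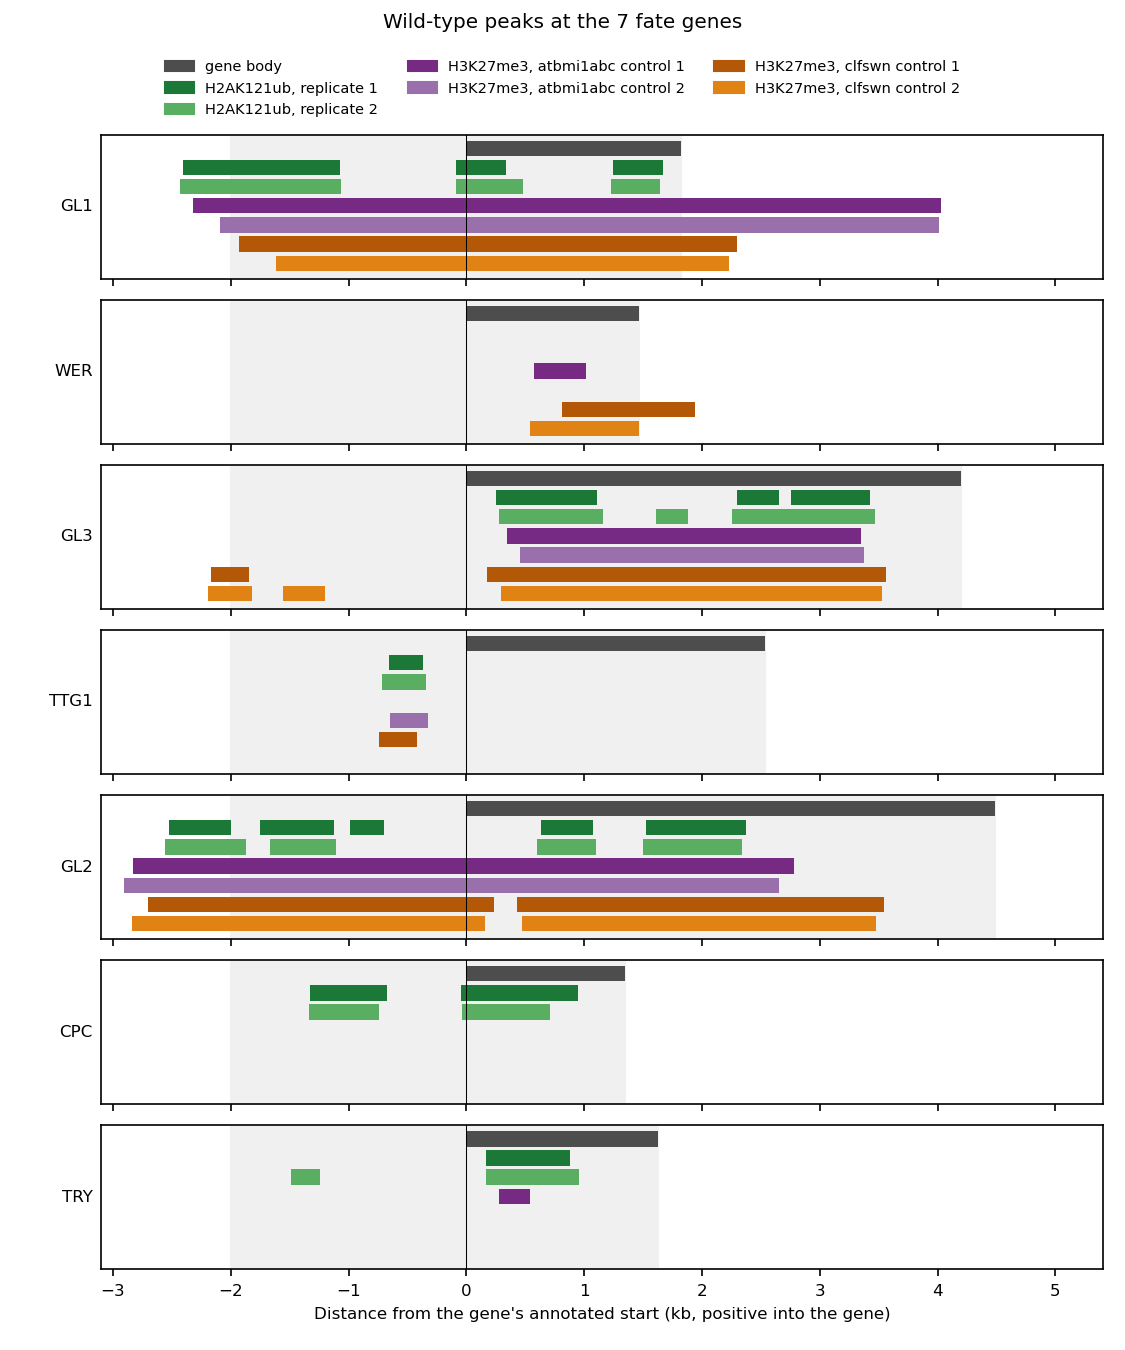
WT peaks at the 7 fate genes against the distance from the annotated start in kb, with the gene body in dark grey, the window of gene body and 2 kb upstream shaded, and 1 row per WT library (H2AK121ub in green, H3K27me3 in purple for the atbmi1abc controls and orange for the clfswn controls). H3K27me3 spans several kb over GL1, GL3 and GL2, H2AK121ub peaks are shorter, and CPC has no H3K27me3 row; 1 GL2 peak past the 3′ end is not drawn.

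GL1, the MYB of shoot epidermis, held 3 H2AK121ub peaks in each WT replicate. The strongest lay from 2408 to 1071 bp upstream of the start (chromosome 3, 10364678 to 10366015), with 475 and 519 reads, and also overlapped the neighbours AT3G05375 and DEG1. The others lay over the start, with 113 and 137 reads, and near the 3′ end, with 132 and 107 reads. Over all of them lay a single H3K27me3 peak of 6346 bp with 1868 reads in control replicate 1 of atbmi1abc and of 6099 bp with 1492 reads in replicate 2. Its length was at percentile 96.2 and 95.2 of all WT H3K27me3 peaks of these libraries.

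GL3, the bHLH partner, held an H2AK121ub peak just after its start (chromosome 5, 16529340 to 16530197) with 310 and 316 WT reads, and further peaks from 2296 bp into the gene in replicate 1 and 1611 bp in replicate 2. H3K27me3 covered 3010 bp of the gene with 987 reads in replicate 1 and 2923 bp with 741 reads in replicate 2 of the atbmi1abc controls. In the clfswn controls it covered 3386 bp with 2048 reads and 3235 bp with 1275 reads. TTG1, the WD40 protein, held only a short H2AK121ub peak upstream (chromosome 5, 8373215 to 8373502), with 60 and 113 reads. Its read density was at percentile 1.1 of all WT H2AK121ub peaks in replicate 1 and 30.2 in replicate 2, so TTG1 was the most weakly marked of the 6 genes in replicate 1.

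GL2, the target of the complex, held 6 H2AK121ub peaks in replicate 1 and 5 in replicate 2. Of these, 1 touched the window at its upstream edge and 1 lay mostly past the 3′ end. H3K27me3 ran from 2832 bp upstream to 2778 bp into the gene, with 2301 reads in control replicate 1 of atbmi1abc and 1692 in replicate 2, at density percentiles 86.1 and 82.9.

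CPC, an R3 MYB inhibitor, held an H2AK121ub peak over its start and gene body (chromosome 2, 19049424 to 19050418) with 477 and 467 reads, and another 676 to 1327 bp upstream (19051045 to 19051696) with 281 and 317 reads. No H3K27me3 region was listed in the CPC window in any of the 4 H3K27me3 tables. TRY, the other R3 MYB inhibitor, held an H2AK121ub peak from 168 to 880 bp into the gene (chromosome 5, 21582782 to 21583494) with 271 and 275 reads, and a WT H3K27me3 peak of 263 bp with 49 reads in 1 library only. WER, the root MYB, held a WT H3K27me3 peak of 443 bp with 75 reads in control replicate 1 of atbmi1abc, and peaks with 228 and 152 reads in the controls of clfswn. These were low in density, at percentiles 10.1, 8.3 and 17.5 of their libraries.

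The next question was what became of H2AK121ub at these genes without AtBMI1. Of 14 peaks matched between the replicates, 6 fell and 0 rose with the authors' rescaling, at 5 of the 6 marked genes, and the median log2 ratio was -0.74. Over all 20673 matched peaks, 64% fell and 0.716% rose, with a median of -0.97, so by peak the share that fell was lower at the 7 genes. By gene it was not lower, with 5 of the 6 against 71.9% of the 19209 protein-coding genes with a matched peak. The 0 higher calls are edgeR's, of 14 peaks with 9 at an unadjusted p under 0.05, all lower, and DESeq2 with its own size factors also gave 0. With total reads, 2 of the 14 were lower and 5 higher, against 22.4% and 24.8% of all peaks, and the median was 0.26 against 0.04.

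The CPC upstream peak changed most. It held 45 and 74 reads in atbmi1abc against 281 and 317 in WT, which was 17.8% and 24.6% of WT. Both mutant libraries lay far below both WT libraries. The mean log2 ratio was -2.25 ± 0.33 (SD, n = 2), with an edgeR adjusted p of 2.88e-08. With total reads it was -1.23 ± 0.01 (SD, n = 2) with an adjusted p of 1.32e-07, so this peak was also lower relative to the other peaks. It was called in WT only in both replicates, which favours a fall. The same holds for the peaks over the GL1 start and 1121 to 1750 bp upstream of GL2. For the upstream GL1 peak and the distal GL3 peak it holds in replicate 1. The adjusted p-values given for these falls do not allow for this.

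The peak over the CPC gene body held 234 and 314 reads against 477 and 467. It was at 54.6% and 71.6% of WT and was not called (log2 ratio -0.68, edgeR adjusted p = 0.0591). With total reads its log2 ratio turned to 0.32 and it was called higher (adjusted p = 0.0363). The difference between the log2 ratios of the 2 CPC peaks was not tested. At TRY, the peak at the start of the gene fell from 271 and 275 reads to 99 and 138, 40.5% and 53.0% of WT, with a log2 ratio of -1.11 ± 0.27 (SD, n = 2) and an edgeR adjusted p of 0.00371. With total reads it was at 95.7% and 91.8% and not called.

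At GL1, the upstream peak fell from 475 and 519 reads to 130 and 208 (log2 ratio -1.48 ± 0.34, SD, n = 2, edgeR adjusted p = 7.26e-05), and it was also lower with total reads (-0.47 ± 0.02, SD, n = 2, adjusted p = 0.00414). The peak over the GL1 start fell from 113 and 137 reads to 50 and 79, with an edgeR adjusted p of 0.0338, but with total reads its log2 ratio was 0.13 and it was not called. The peak near the GL1 3′ end split between the replicates, with 63 reads against 132 in replicate 1 and 115 against 107 in replicate 2. It was not called with the rescaling and was called higher with total reads (log2 ratio 0.66).

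At GL3, the distal peak in the gene fell (98 and 325 reads against 295 and 541, edgeR adjusted p = 0.00563), and its log2 ratio was -0.01 with total reads. Its limits differed, with 669 bp in replicate 1 and 1212 bp in replicate 2. The longer region also covered another replicate 1 peak (73 reads against 159) that was left unmatched. The GL3 peak after the start, with 156 and 229 reads against 310 and 316, was not called and was higher with total reads (0.40). At GL2, the upstream peak 1121 to 1750 bp before the start fell from 194 and 168 reads to 74 and 85 (log2 ratio -1.08, edgeR adjusted p = 0.00573) and was at 100.1% and 92.7% of WT with total reads. The other 4 matched GL2 peaks were not called with the rescaling, and 2 of them, at the upstream edge and 637 to 1076 bp into the gene, were called higher with total reads. The TTG1 peak, with 37 and 57 reads against 60 and 113, was not called under either scaling.

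The CPC and the GL1 upstream peaks were the only ones of the 14 called lower with the rescaling and with total reads alike. With DESeq2 the CPC upstream peak alone was called (adjusted p = 8.11e-04), and the GL1 upstream peak was not (0.123).

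**Figure D2:**
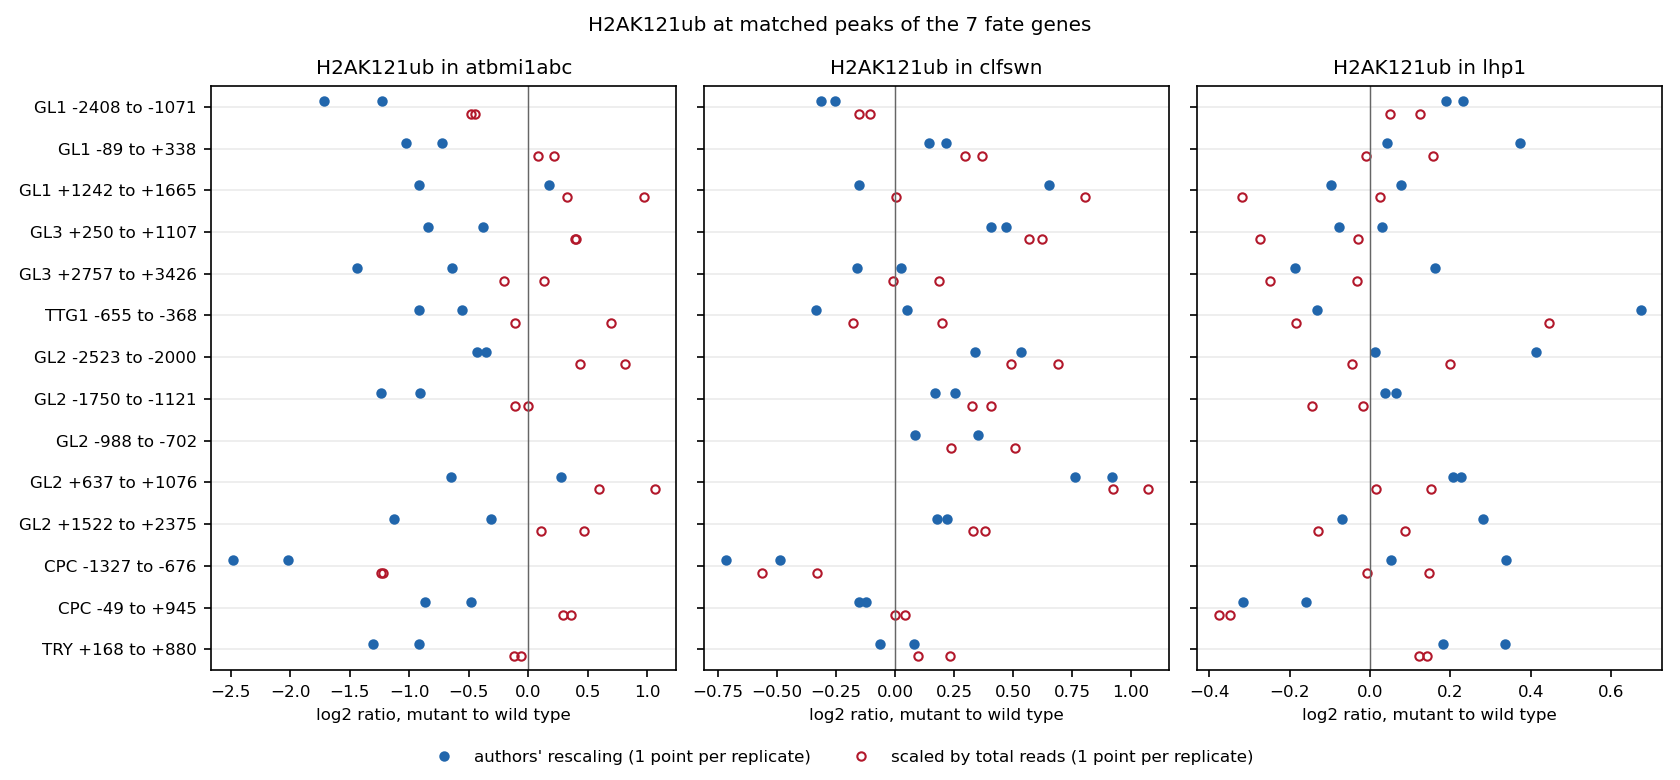
Log2 ratio of mutant to WT reads at each matched H2AK121ub peak of the 7 genes, named by gene and by distance from its start in bp, in atbmi1abc, clfswn and lhp1 (the horizontal scales differ). Filled points use the authors' rescaling and open points total reads, with 1 point per replicate; the CPC upstream peak lies below 0 in atbmi1abc and clfswn under both, and the GL2 peaks lie above 0 in clfswn; 1 GL2 peak past the 3′ end is not plotted.

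The loss of the PRC2 methyltransferases was compared in clfswn. Of 15 matched H2AK121ub peaks, 2 fell, 3 rose and 10 were not called, with a median log2 ratio of 0.18. Over all 24038 matched peaks 30.4% fell and 12.4% rose, with a median of -0.11. With total reads, 1 was lower and 5 were higher, against 18.5% and 21.6% of all, with medians of 0.34 and 0.04.

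GL2 gained most. The peak 637 to 1076 bp into the gene, whose centre is printed above, rose from 151 and 135 reads to 250 and 249, 170% and 189% of WT. Both mutant libraries exceeded both WT libraries. The log2 ratio was 0.84 ± 0.11 (SD, n = 2, edgeR adjusted p = 7.87e-08), and the peak was higher with total reads too (adjusted p = 5.61e-07). The peak at the upstream edge of the GL2 window rose as well, from 128 and 178 reads to 180 and 219 (log2 ratio 0.43, edgeR adjusted p = 0.0134), and the remaining 3 GL2 peaks upstream or in the gene had log2 ratios between 0.20 and 0.23 and were not called. Of those, 2 were called higher with total reads.

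At GL3, the peak after the start rose from 310 and 316 reads to 400 and 426, 132% and 139% of WT, with an edgeR adjusted p of 4.80e-04 and 3.92e-05 with total reads. The distal GL3 peak, at 292 and 470 reads against 295 and 541, was not called. The CPC upstream peak fell again, from 281 and 317 reads to 194 and 187 (71.2% and 60.8% of WT, log2 ratio -0.60 ± 0.16, SD, n = 2, edgeR adjusted p = 2.81e-05), and was lower with total reads too (adjusted p = 0.00511). The CPC gene-body peak held 427 and 408 reads against 477 and 467 and was not called. The GL1 upstream peak fell slightly, from 475 and 519 reads to 372 and 422 (80.5% and 83.7%, edgeR adjusted p = 0.0203), and was not called with total reads. The peaks over the GL1 start, at TRY (252 and 283 reads against 271 and 275) and at TTG1 (60 and 87 against 60 and 113) were not called. The GL1 peak near the 3′ end split between the replicates, with 115 and 164 reads against 132 and 107 (90.1% and 157% of WT). It was not called under either scaling.

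Without the replicate block, 0 of these 15 peaks were called in either direction, against 1251 lower and 295 higher of all 24038. The lowest edgeR adjusted p of the 15 was 0.0563, for the GL2 gene-body peak. In that fit the 2 replicates of a genotype, counted within unequal peak limits, enter as one group.

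**Figure D3:**
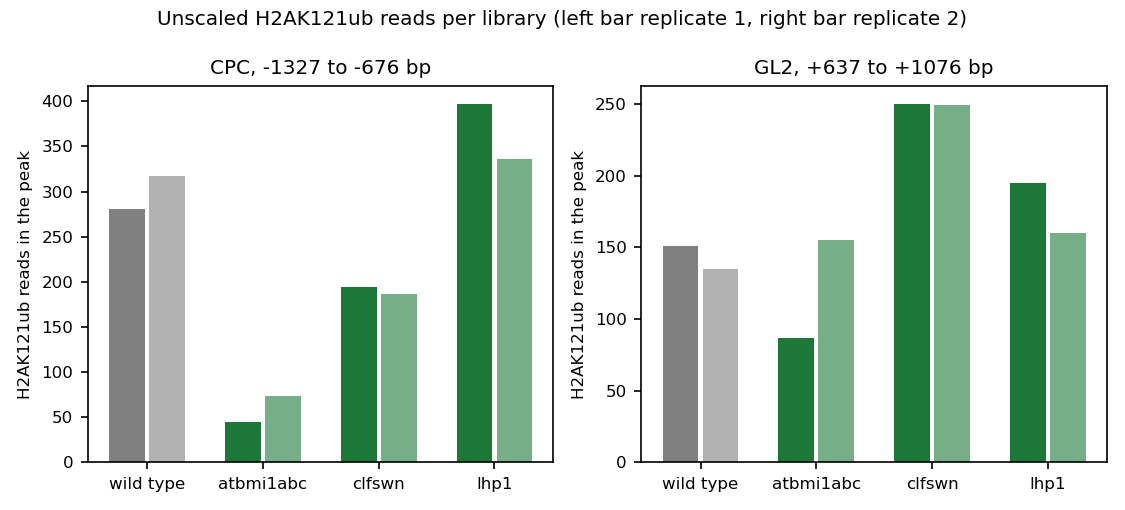
Unscaled H2AK121ub reads in each library at the CPC upstream peak (left) and the GL2 gene-body peak (right), WT in grey and mutants in green, with replicate 1 as the left bar of each pair. At CPC the atbmi1abc libraries hold 45 and 74 reads against 281 and 317 in WT, and at GL2 the clfswn libraries hold 250 and 249 against 151 and 135.

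In lhp1, 0 of 14 matched H2AK121ub peaks were called by edgeR in either direction, with 1 at an unadjusted p under 0.05, against 0.612% of 22056 peaks called lower and 9.54% higher. DESeq2 with its own size factors also called 0, with no adjusted p for 3 of the 14. The median log2 ratio was 0.20 over the 14 peaks and 0.10 over all. The log2 ratios fitted by edgeR at the peaks reported here ranged from -0.24 at the CPC gene body (478 and 383 reads against 477 and 467) to 0.26 at TRY (382 and 319 against 271 and 275). The CPC upstream peak, lower in the other mutants, held 397 and 336 reads against 281 and 317, 126% and 104% of WT. The GL2 gene-body peak held 195 and 160 against 151 and 135. With total reads, the CPC gene-body peak was called lower (log2 ratio -0.36 ± 0.02, SD, n = 2, edgeR adjusted p = 0.0125), the 1 call of the 14, against 3.58% lower and 5.57% higher of all peaks.

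H3K27me3 in atbmi1abc was compared to see how the PRC2 mark stood in plants without AtBMI1. Of 8 matched peaks at 6 genes (all but CPC), 1 fell, 3 rose and 4 were not called, with a median log2 ratio of 0.48. Over all 9602 matched peaks 38% fell and 31.8% rose, with a median of -0.06. With total reads, 1 was lower and 7 were higher, against 30.7% and 47.7% of all, and the medians were 0.78 and 0.21.

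GL3 was the gene that lost H3K27me3. Its peak fell from 987 and 741 reads to 553 and 438, 57.3% and 59.4% of WT. Both mutant libraries lay below both controls. The log2 ratio was -0.78 ± 0.04 (SD, n = 2, edgeR adjusted p = 2.89e-08) and -0.51 ± 0.08 with total reads (SD, n = 2, adjusted p = 1.87e-06). GL1 and GL2, which carried the broadest peaks, kept reads close to WT. GL1 held 1668 and 1409 reads against 1868 and 1492 (92.6% and 96.3%), and GL2 held 1970 and 1678 against 2301 and 1692 (89.0% and 101%). Neither was called with the rescaling, and with total reads both were called higher, with a log2 ratio of 0.17 each.

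Regions rose at TRY, TTG1 and WER, which held little H3K27me3 in WT. They were listed wholly or partly because a peak was called in the mutant, which favours a rise. The adjusted p-values given for them do not allow for this. At TRY, a region 1031 to 2586 bp upstream that was called in the mutant only held 226 reads against 114 in replicate 1, and a shorter region within it 57 against 22 in replicate 2. It rose by a log2 ratio of 1.15 ± 0.22 (SD, n = 2, edgeR adjusted p = 2.24e-05). The small TRY peak in the gene held 67 and 125 reads against 49 and 88 and was not called. It rose with the mutant's peak limits, which favour a rise (163 and 125 reads against 86 and 88, edgeR adjusted p = 0.00221). At TTG1, the region 212 to 1041 bp upstream was called in the mutant only in replicate 1 and in both libraries in replicate 2. It held 187 and 72 reads against 113 and 37 and rose (edgeR adjusted p = 0.00156). The region further upstream, called in the mutant only in both replicates, held 101 and 67 against 81 and 40. It was called higher only with total reads. The upstream TTG1 and TRY regions overlapped no annotated gene.

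At WER the matching of the replicates matters. In replicate 2 the mutant had 1 broad region called in the mutant only, from the WER start to 4421 bp past it and into the neighbour CA2 (chromosome 5, 4760413 to 4764840), with 744 reads against 312. In replicate 1 this region overlapped most with a mutant-only region over CA2 (135 reads against 72). That CA2 region lay 3557 to 4326 bp past the WER start, outside the WER window. This pair gave a log2 ratio of 1.08 ± 0.26 (SD, n = 2, edgeR adjusted p = 1.65e-10) and is the call counted for WER. Within the WT limits over the WER gene itself, replicate 1 held 137 reads against 75, 182% of WT. With the mutant's peak limits, this broad region was matched to one in replicate 1 that ended 3074 bp past the WER start. The pair held 793 and 744 reads against 408 and 312 and rose by 1.13 on the log2 scale (edgeR adjusted p = 3.20e-15). Limits taken from the mutant's own peaks favour a rise. WER is 1463 bp long, so both regions also run well past its end.

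The rises at WER, TTG1 and TRY came from regions whose limits differed between the replicates. With 50% overlap required between the replicates, these 3 were not matched and 0 peaks were called higher, and without the replicate block 0 were called higher as well. Over all peaks, 2489 of 8442 were higher with the 50% overlap and 1663 of 9602 without the block. The fall at GL3 was called under both.

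In clfswn, H3K27me3 fell over the 3 broadly marked genes. Of 7 matched peaks at 4 genes, 5 fell and 0 rose, with a median log2 ratio of -2.87. The 2 without a call were that of WER and a region past the 3′ end of GL2, which is counted here and whose values are not reported. Over all 10211 matched peaks 64.8% fell and 10.1% rose, with a median of -2.63. The 0 higher calls were at an adjusted p under 0.05 in edgeR, with 6 of 7 at an unadjusted p under 0.05, of which 1 had a higher level, and DESeq2 called 1 higher. With total reads 4 were lower and 1 higher, against 47.7% and 15.2% of all, with medians of -0.78 and -0.50.

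GL1 held 103 and 180 reads in clfswn against 2035 and 1337 in WT, 5.22% and 14.1% of WT (log2 ratio -3.54 ± 1.02, SD, n = 2, edgeR adjusted p = 0.0296). GL3 held 101 and 211 reads against 2048 and 1275, 5.08% and 17.5% (-3.41 ± 1.26, SD, n = 2, adjusted p = 0.0312). The 2 GL2 peaks held 79 and 176 against 1129 and 710, and 97 and 237 against 2107 and 1299, with adjusted p of 0.0393 and 0.0320 in edgeR. In each of these peaks both mutant libraries lay far below both WT libraries, and replicate 2 kept a larger share than replicate 1. These reads are unscaled. The totals over all regions were 1428193 and 2245276 in the mutant against 9602490 and 6320011 in WT. With total reads the same 4 peaks were lower, with log2 ratios from -1.47 at GL1 to -0.78 at the upstream GL2 peak, and edgeR adjusted p of at most 0.00184. The weak peak upstream of GL3 (11 and 19 reads against 61 and 61) fell with the rescaling (edgeR adjusted p = 0.0407), and its log2 ratio was 0.01 with total reads. All of these GL1, GL3 and GL2 peaks were called in WT only in both replicates, which favours a fall. Their adjusted p-values do not allow for this.

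WER held 46 and 53 reads against 228 and 152, 20.8% and 34.3% of WT, and was not called (log2 ratio -1.90 ± 0.51, SD, n = 2, edgeR adjusted p = 0.0724). With total reads it was at 138% and 99.3%. The TTG1 peak of WT replicate 1, with 9 reads against 59, had no match in replicate 2. No H3K27me3 region was listed at CPC or TRY.

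**Figure D4:**
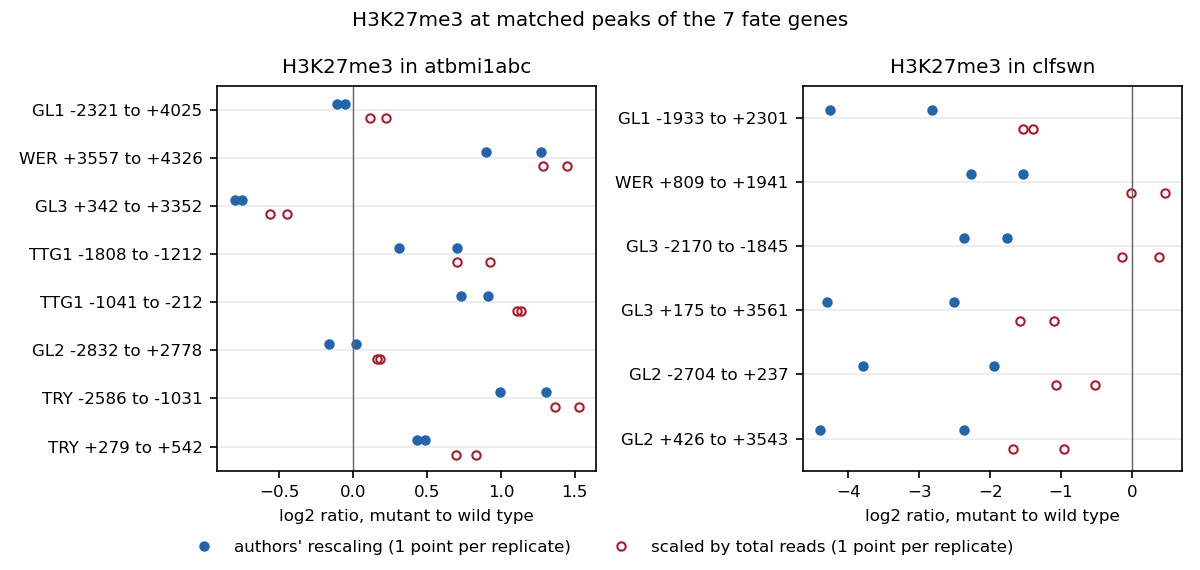
Log2 ratio of mutant to WT reads at each matched H3K27me3 peak of the 7 genes, named by gene and by distance from its start in bp, in atbmi1abc (left) and clfswn (right; the horizontal scales differ). Filled points use the authors' rescaling and open points total reads, 1 point per replicate; GL3 lies below 0 in atbmi1abc, where WER, TTG1 and TRY lie above it, and GL1, GL3 and GL2 lie below 0 in clfswn with the rescaling; 1 GL2 region past the 3′ end is not plotted.

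Beside the 7 genes, 32 others of the epidermal network were listed by role, with the same window. For H2AK121ub in atbmi1abc, 29 had a matched peak, 18 had a peak that fell and 0 one that rose. Of all 19209 protein-coding genes with a matched peak in the same window, 71.9% had one that fell and 0.755% one that rose. With total reads 11 of the 29 had a lower peak and 13 a higher one, against 29.8% and 32.7% of all. Of the genes with a matched peak, a lower one was found in 4 of 5 R3 MYB inhibitors, relatives of CPC and TRY, in 3 of 3 bHLH partners, in 4 of 5 trichome zinc finger genes, in 3 of 4 root hair wall genes, in 2 of 4 other regulators, in 1 of 3 R2R3 MYB genes and in 1 of 5 root hair bHLH genes. With total reads these counts were 2, 1, 3, 3, 1, 1 and 0 in the same order, and 0, 1, 1, 3, 3, 2 and 3 genes had a higher peak. The R3 MYB inhibitors ETC2 and TCL2 are neighbours and share a peak that was lower under both scalings. The largest falls were at SIM, a cell cycle inhibitor that drives endoreduplication in trichomes (70 and 69 reads against 378 and 353, log2 ratio -2.29), PRP3, a proline-rich wall protein of root hairs (41 and 28 against 149 and 160), and EXPA7, a root hair expansin (70 and 94 against 307 and 388). These 3 were lower with total reads as well, with log2 ratios of -1.27, -1.04 and -0.98.

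For H2AK121ub in clfswn, 30 of the 32 had a matched peak, 13 had 1 that fell and 11 had 1 that rose, against 42.3% and 17.4% of the 20505 protein-coding genes with a matched peak. With total reads 9 had a lower peak and 13 a higher one, against 27.2% and 29.3%. SIM fell again (192 and 173 reads against 378 and 353, log2 ratio -0.96), as did MYB106, a MYB gene of trichome development (118 and 59 against 201 and 134), and a peak of COBL9, a root hair gene of the COBRA family (408 and 649 against 794 and 1080), another peak of which rose. MYB23, a MYB close to GL1 in function, rose most (248 and 315 reads against 75 and 96, log2 ratio 1.76), followed by JKD, a zinc finger gene of root patterning (284 and 339 against 143 and 182), and RHD6, a bHLH gene that starts root hairs (450 and 304 against 265 and 143). The limits of these regions were not the same in another mutant, although the WT libraries were shared. They therefore came from a mutant's own peaks, which favours a rise. The root hair bHLH genes with a matched peak had a higher one in 3 of 5 and a lower one in 0. In lhp1, 28 had a matched peak, and MYB23, JKD and ZFP8, a trichome zinc finger gene, had a higher one, with log2 ratios of 0.88, 0.81 and 0.54, while 0 had a lower one. The MYB23 and JKD regions again had the limits of the mutant's own peaks, which favours a rise. Of the 19571 protein-coding genes with a matched peak, 13.2% had a higher one and 1.03% a lower one. With total reads 3 had a higher peak and COBL9 a lower one (975 and 823 reads against 794 and 1080, log2 ratio -0.27, edgeR adjusted p = 0.0460), against 8.06% and 6.11% of all.

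For H3K27me3 in atbmi1abc, 25 of the 32 had a matched peak, 11 had 1 that fell and 8 had 1 that rose, against 49.1% and 27.1% of the 11004 protein-coding genes with a matched peak. With total reads 9 had a lower peak and 13 a higher one, against 39.9% and 44.3%. The R3 MYB inhibitors with a matched peak had a higher one in 3 of 3 and a lower one in 0. These are the chromosome 2 neighbours ETC2, TCL2 and TCL1, so they are not separate cases. ETC2 and TCL2 share a peak (405 and 300 reads against 292 and 222). TCL1 rose by a log2 ratio of 1.25 at its strongest (199 and 123 reads against 77 and 57), ZFP8 by 1.04 and TCL2 by 0.84, where TCL1 and TCL2 are R3 MYB inhibitors. All 4 root hair wall genes had a peak that fell (3 with total reads, under which 1 had a higher peak), led by PRP3 (78 and 63 reads against 933 and 634, log2 ratio -3.48). ZFP5, a zinc finger gene of trichomes and root hairs, held 491 and 387 reads against 2447 and 1782, and EGL3, the close relative of GL3, 38 and 37 against 156 and 139. In clfswn, 26 had a matched peak, 22 had 1 that fell and 0 one that rose, against 74.1% and 11.4% of the 11851 protein-coding genes with a matched peak. With total reads 21 had a lower peak and 1 a higher one, against 64.3% and 16.2%. The largest falls were at the zinc finger gene GIS2 (110 and 106 reads against 2386 and 1629), the MYB gene MYB5 (93 and 198 against 2968 and 1977) and EXPA7 (124 and 200 against 3316 and 2140).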

How the data were processed

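Per the labels and the study's methods, reads were mapped by the authors with Bowtie to TAIR10. They called peaks per library with MACS2 against a common input, and joined 1 mutant and 1 WT library per table. The authors deposited unscaled read counts per region and log2 values M and A, which they rescaled with a variant of MAnorm over peaks they took as unchanged. The rescaling was recovered from the deposited log2 values as an exact line and used as offsets. The authors' own p-values and log2 ratios of mutant to WT were not used as results.

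A region called in both libraries was counted once, with the WT limits. Regions of the replicate tables were paired where each was the other's best overlap (1 bp or more). Levels are (mutant reads + 1) / (WT reads + 1), rescaled. Counts of all matched peaks were tested with edgeR 4.0.16 (quasi-likelihood test, Benjamini-Hochberg adjustment over all matched peaks, R 4.3.3). The replicate number was a block, since the labels name a WT control for each mutant library, as in the study's analysis. For H2AK121ub these controls were 2 libraries shared by all mutants. DESeq2 1.42.0, total reads, TMM factors, no block, other peak limits, overlaps, filters and thresholds, gene body only, and each replicate alone were alternatives. On simulated counts, 2-fold changes were recovered in 27% of cases for H2AK121ub in atbmi1abc, 98% in clfswn and 98% in lhp1, and in 97.5% for H3K27me3 in atbmi1abc and 0% in clfswn. The simulation changed 200 peaks, with the spread of the fit with the rescaling but libraries scaled by total reads. These rates therefore describe neither set of calls directly.

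The 7 genes, the 32 network genes and the alternatives were chosen with earlier results of these data known. All 7 genes were named throughout, and of the 32 those with called peaks, at most the 3 largest log2 ratios in each direction. Gene models were RefSeq TAIR10.1, whose nuclear lengths match TAIR10 except for 1 peak row that ended 9 bp past chromosome 3. Coordinates are as deposited, and whether their numbering begins at 0 or 1 is not given in the sources used here. Past the 3′ end of GL2, the values of 1 H2AK121ub peak and 1 H3K27me3 region are not reported here, though counts and medians include them. The input sample was not analysed here.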

Additional observations from a re-analysis of the deposited data

Results flagged for a closer look

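H3K27me3 at WER went in opposite directions in the 2 mutants, in every region of its window and in both replicates. In atbmi1abc the mean log2 ratio over its regions was 0.86 in replicate 1 and 1.17 in replicate 2, 1.02 on average, and in clfswn it was -2.26 and -1.54, -1.90 on average. With total reads the clfswn ratios were 0.46 and -0.01, so the opposition was seen with the authors' rescaling only. The difference between the mutants was not tested, the regions differ in length, and each mutant was set against its own WT libraries. In replicate 2 of atbmi1abc the WER regions were called in the mutant only, and in clfswn in WT only, which favours these directions.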

How the results depend on the processing

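The calls at the 7 genes depended mostly on the scaling, and the cause was not tested. For H2AK121ub in atbmi1abc, 6 peaks were lower and 0 higher with the rescaling, 2 and 5 with total reads or with total reads over nuclear regions (an alternative chosen after seeing the data), 2 and 4 with TMM factors, and 1 lower with DESeq2. Of all 20673 peaks, 4626 were lower and 5120 higher with total reads, and 4373 and 5082 with total reads over nuclear regions. TMM factors gave 4771 and 4664, and DESeq2 gave 2382 and 1979. For H2AK121ub in clfswn, 2 were lower and 3 higher with the rescaling, 1 and 5 with total reads, with total reads over nuclear regions and with TMM factors, and 0 lower with DESeq2. Of all 24038 peaks, 4458 were lower and 5184 higher with either total, 4956 and 4766 with TMM factors, and 1480 and 1143 with DESeq2. In lhp1, 1 was lower with total reads, total reads over nuclear regions or TMM factors, and 1 higher with the mutant's peak limits. Of all 22056 peaks, 790 were lower with either total and 541 with TMM factors, and 2333 of 22284 were higher with the mutant's limits. For H3K27me3 in atbmi1abc, 3 were higher with the rescaling, 7 with total reads or total reads over nuclear regions and 5 with TMM factors. Of all 9602 peaks, 4584 were higher with total reads, 4454 with total reads over nuclear regions and 3758 with TMM factors. In clfswn, 1 was higher with total reads or total reads over nuclear regions, 2 with TMM factors and 1 with DESeq2, while TMM factors and DESeq2 left 3 lower. Of all 10211 peaks, 1555 were higher with total reads and 1706 with total reads over nuclear regions. TMM factors gave 2884 lower and 3067 higher, and DESeq2 gave 2395 and 1933.

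Without the replicate block, 0 lower and 0 higher peaks were called for H2AK121ub in clfswn, 0 higher for H3K27me3 in atbmi1abc, and 1 became higher for H3K27me3 in clfswn. Over all peaks, in the same order, that fit called 1251 lower and 295 higher of 24038, 1663 higher of 9602 and 1116 higher of 10211. The pairing changed no other count by over 1.5 times. With gene bodies only, fewer peaks were counted: 3 lower for H2AK121ub in atbmi1abc, 0 lower in clfswn, and 1 higher for H3K27me3 in atbmi1abc. The 50% overlap gave 0 higher for H3K27me3 in atbmi1abc, against 2489 of all 8442 peaks. For H2AK121ub in clfswn, 1 was lower with the limits on level and 1 at an adjusted p under 0.01, which gave 0 lower for H3K27me3 in clfswn. The stronger peaks alone marked 3 of the 7 genes with WT H2AK121ub instead of 6. Peaks of 1 replicate alone marked between 4 and 5 genes with H3K27me3 in the atbmi1abc controls instead of 3. A replicate alone allowed no test, so it gave ratios and no counts of calls.

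Log2 ratios that changed direction, at peaks called under either setting, are given in the order total reads, total reads over nuclear regions and TMM factors. For H2AK121ub in atbmi1abc they became 0.66, 0.67 and 0.63 at the GL1 peak near the 3′ end, 0.13, 0.14 and 0.10 over the GL1 start (0.11 with DESeq2), 0.40, 0.41 and 0.37 after the GL3 start, 0.60, 0.62 and 0.57 at the upstream edge of GL2, and 0.84, 0.85 and 0.81 at the GL2 gene-body peak. At the CPC gene body it became 0.32 and 0.33 with total reads and nuclear regions, and at the distal GL3 peak 0.0011 with nuclear regions. For H3K27me3 in atbmi1abc it became 0.17 and 0.14 at GL1 and 0.17 and 0.14 at GL2 with total reads and nuclear regions. In clfswn it became 0.20, 0.28 and 0.82 at WER, called among these with TMM factors only, and 0.0096, 0.0862 and 0.62 at the weak peak upstream of GL3 (0.58 with DESeq2). The filter on mean reads reversed none of the 57 peaks it kept. Ratios also changed sign at peaks with no call under either setting. With total reads these included, for H2AK121ub, TTG1 (0.22) and the second GL2 gene-body peak (0.29) in atbmi1abc, the distal GL3 peak (0.0772) and the CPC gene body (0.0196) in clfswn, and the GL2 peaks 1121 to 1750 bp upstream (-0.0829) and second in the gene body (-0.0150) in lhp1. The GL3 peak after the start in lhp1 became 0.13 with the mutant's peak limits.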

Other observations

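Some regions at the 7 genes were listed in 1 replicate only. In clfswn replicate 2, a 200 bp region in the coding exon of TTG1 was called for H3K27me3 in the mutant, with 101 reads against 3 in WT, and replicate 1 listed no region there. In lhp1 replicate 1, H2AK121ub regions called in the mutant only lay in the coding part of TTG1 (166 reads against 102) and near the end of TRY (72 against 31). At TRY, a weak H2AK121ub region 1241 to 1488 bp upstream was listed in replicate 2 of each mutant, with 56 WT reads and 31 reads in atbmi1abc, 56 in clfswn and 58 in lhp1.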
